A study of Mus musculus with 2 samples.

Results

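Voltage-gated and potassium channel genes were described in the left cerebral cortex of mice by long-read RNA sequencing. The members were chosen by name: protein-coding genes with a read in both libraries whose symbol starts with Kcn (potassium channels and their auxiliary subunits), Hcn plus a digit, Cacna1, Cacna2d or Cacnb plus a digit (calcium channels), or reads Scn, a number and a or b (sodium channels). The annotation holds 130 protein-coding genes with such names. Of these, 102 had a read in both libraries and are the members, among 13061 protein-coding genes with a read in both. A further 14 had a read in 1 library only, with at most 3 reads. The tissue came from males of B6CASTF1/J, a first-generation cross of C57BL/6J and CAST/EiJ, at 14 days of age. The series has 1 group with 2 libraries, replicate 1 and replicate 2, each made from 2 µg of total RNA, and no treatment or genotype is compared. The labels give both libraries the same donor identifier and mention several males, so each may be a pool, and nothing shows that they came from separate animals. A difference between the replicates can be technical, and each p-value compares it with counting error only.

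Sodium channels open on depolarization and carry the rising phase of the action potential, and calcium channels couple the same depolarization to transmitter release and gene regulation. Potassium channels repolarize the membrane, set the resting potential and shape firing. The pore-forming alpha subunits of sodium and calcium channels are large, while those of many potassium channels are smaller. Auxiliary subunits change the gating of alpha subunits, their trafficking and their place in the membrane. In the mouse cortex the second postnatal week is a time of steep growth in these currents. A read here stands for 1 sequenced molecule, so levels are given as CPM, the count of a gene scaled to a library total of 1000000 mouse reads, and are not divided by transcript length. Whether long transcripts were sequenced as readily as short ones was not tested. Reads of genes of unlike length, such as alpha and auxiliary subunits, therefore do not give their ratio in the tissue. In bulk tissue a lower level can mean fewer cells of a type or less RNA per cell, and these cannot be told apart.

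Replicate 1 gave 775048 mouse reads and replicate 2 gave 924222. Some markers of cell types and neighbouring regions differed between the libraries. Markers of striatum summed to 1233 CPM in replicate 1 and 394 CPM in replicate 2, and 7 of 8 tested were higher in replicate 1. Markers of oligodendrocytes summed to 3140 CPM in replicate 1 and 2061 CPM in replicate 2, and 3 of 4 tested were higher in replicate 1. Of the choroid plexus markers, 1 had enough reads to test, Ttr, with 36.1 CPM in replicate 1 and 247 CPM in replicate 2. Of 5 excitatory neuron markers, 1 was called, Nrgn, lower in replicate 1 with 1942 CPM against 3525 CPM in replicate 2, while Slc17a7 stood at 1368 and 1316 CPM. Interneuron markers stood at 504 CPM in replicate 1 and 466 CPM in replicate 2.

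The channel genes took 2854 reads in replicate 1, or 0.368% of mouse reads (95% Wilson interval 0.355 to 0.382), and 3468 reads in replicate 2, or 0.375% (0.363 to 0.388). The mean was 0.372% ± 0.00495 (SD, n = 2). The reads were spread thinly: 84 members had 10 or more reads over both libraries, 63 had 20 or more, 36 had 50 or more, and 18 had fewer than 10. Auxiliary subunits of the voltage-gated potassium channels held the largest share of any role group, 596 ± 30.8 CPM over 8 genes. The tandem-pore Kcnk genes followed with 427 ± 35.2 CPM over 11 genes and the sodium channel beta subunits with 413 ± 4.43 CPM over 4 genes. Sodium channel alpha subunits summed to 155 ± 5.72 CPM, calcium channel alpha1 subunits to 141 ± 15.8 CPM, HCN channels to 87.6 ± 1.61 CPM and calcium channel alpha2delta subunits to 46.3 ± 3.41 CPM (SD, n = 2 for each sum).

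**Figure D1:**
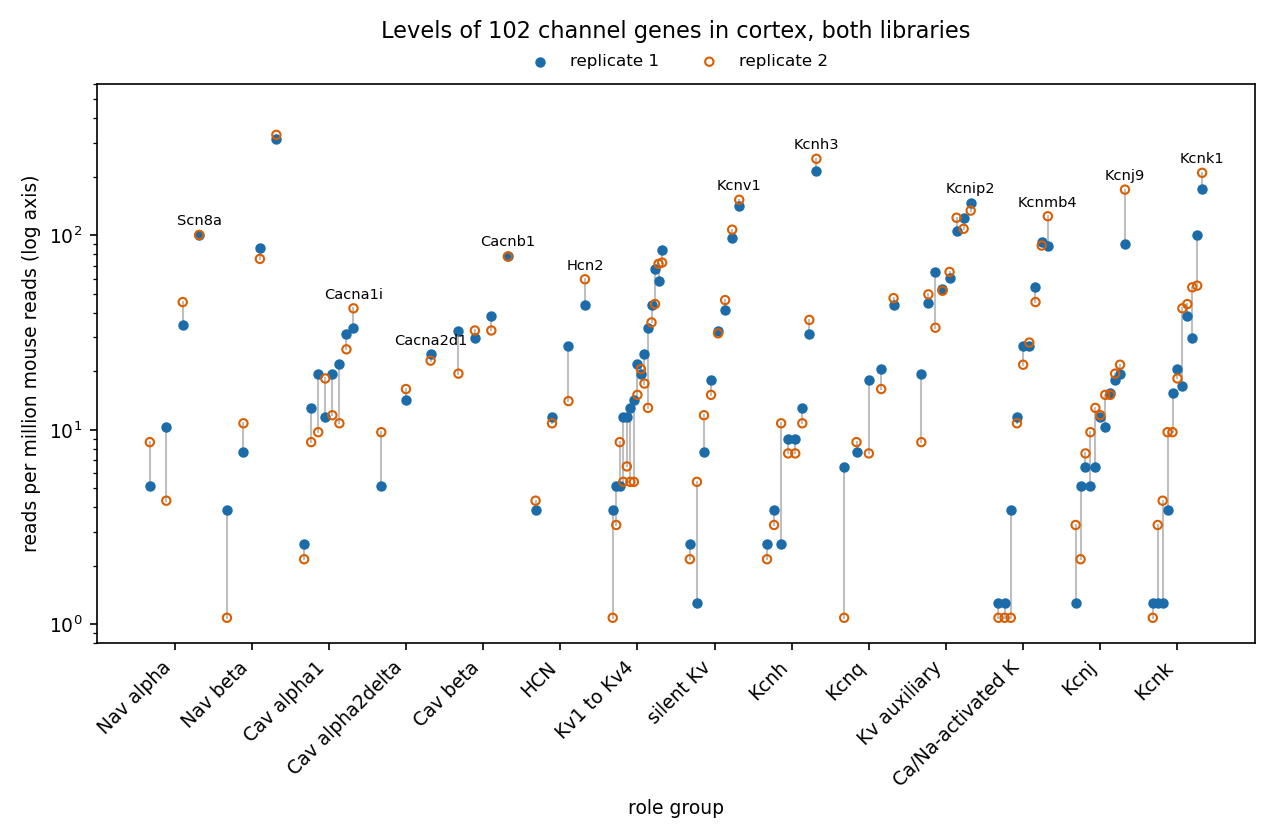
CPM (log axis) of each of the 102 channel genes, grouped by role along the horizontal axis, with replicate 1 as filled and replicate 2 as open circles joined by a line. Kcnh3 stands at 215 CPM in replicate 1 and 248 CPM in replicate 2, and the line of Kcnj9 runs between 90.3 CPM in replicate 1 and 172 CPM in replicate 2.

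Among the sodium channels, the 4 beta subunit genes summed to more reads than the 4 alpha subunit genes, 703 against 264. The longest annotated coding transcript had a median of 4403 bases over the beta genes and 9248 over the alpha genes. The part of length in the difference in reads was not tested. Scn3b, the gene of a beta subunit that modulates gating, had 67 reads in replicate 1 and 70 in replicate 2 (81.1 ± 7.57 CPM), whereas Scn2b had 6 and 10 reads. The alpha subunit Scn8a, the sodium channel of mature axon initial segments and nodes of Ranvier (chromosome 15, 100869858 to 101045938, plus strand), had 78 reads in replicate 1 and 93 in replicate 2, which is 101 CPM in each. Scn2a, the alpha subunit that fills the initial segment earlier in development, had 27 reads in replicate 1 and 42 in replicate 2 (34.8 CPM in replicate 1 and 45.4 CPM in replicate 2). Scn3a had 8 reads in replicate 1 and 4 in replicate 2, and Scn1a had 4 and 8. Scn8a lay above the other alpha subunits in both libraries, while Scn3a and Scn1a did not differ beyond their spread. Only 4 of 10 annotated alpha subunit genes were seen in both libraries.

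Full-length sodium channel transcripts were recovered for Scn8a. Spliced models with 25 or more exons held 33 reads in each library, and the leading isoform, Scn8a-203 with 27 exons, had 17 reads in replicate 1 and 20 in replicate 2. These reads cover coding exon 5, of which the adult form, an exon of 92 bases, was held by 30 of 35 spanning reads in replicate 1 (85.7%) and 29 of 35 in replicate 2 (82.9%). This exon is printed because most reads carry it, 5′ to 3′ from the GENCODE M21 transcripts (mm10), with the exon in capitals and 10 bases of each flanking exon in lower case.
Scn8a, chr15:100959603-100959694, plus strand: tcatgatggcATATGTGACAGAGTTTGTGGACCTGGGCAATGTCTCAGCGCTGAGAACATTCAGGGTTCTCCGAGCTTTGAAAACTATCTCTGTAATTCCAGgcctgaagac
In Scn2a the corresponding exon was held by 7 reads in replicate 1 and 11 in replicate 2, and in Scn3a by 5 and 0. These counts are too small to compare the genes.

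Calcium channel alpha1 subunits were read at low levels and almost never from end to end. Cacna1i, a low-threshold T-type channel, had 26 reads in replicate 1 and 39 in replicate 2 (37.9 ± 6.12 CPM), and 63 of its 65 reads were incomplete splice matches (ISM, models that hold only part of an annotated chain of introns). Cacna1b, the N-type channel of nerve terminals, had 24 reads in each library (28.5 ± 3.53 CPM), of which 31 were genomic models, a class that overlaps a gene without matching its splicing. Cacna1g, another T-type channel, had 17 reads in replicate 1 and 10 in replicate 2. Cacna1c (L-type) had 15 and 11, and Cacna1a, the P/Q-type channel of fast transmitter release, had 9 and 17. The truncated reads of Cacna1a held a median of 1 of 46 introns, and those of Cacna1g a median of 14 of 37. Over the 8 alpha1 genes, 1.26% of reads came from a model whose ends enclosed the longest annotated coding sequence of its gene. A complete isoform with a shorter coding sequence, starting or ending elsewhere, is not counted by this measure.

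Among the calcium channel auxiliary subunits, models that enclosed the longest annotated coding sequence held 24.6% of the reads of the 4 beta genes. For the 3 alpha2delta genes it was 3.8%. Complete isoforms with other coding ends are left out of these shares, so they can understate complete reads. Cacnb1, a cytosolic beta subunit that brings alpha1 to the membrane, had 61 reads in replicate 1 and 72 in replicate 2 (78.3 ± 0.567 CPM), and 76 of the 133 reads were Known models, which match an annotated transcript. Cacnb4 had 30 reads in each library, of which 11 of 60 were Known, and Cacnb3 had 23 and 30, of which 1 of 53 was Known. Cacnb2 had 25 reads in replicate 1 and 18 in replicate 2, and 24 of the 43 were Known. Cacna2d1, an alpha2delta subunit and the binding site of gabapentin, had 19 reads in replicate 1 and 21 in replicate 2 (23.6 ± 1.27 CPM), of which 1 was Known and 23 were ISM. Cacna2d3 had 11 and 15 reads and Cacna2d2 had 4 and 9, with no Known read.

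Hcn2 encodes a pacemaker channel that opens on hyperpolarization. Hcn2 had 34 reads in replicate 1 and 55 in replicate 2 (51.7 ± 11.1 CPM). Hcn3 had 9 and 10, and Hcn4 had 3 and 4. Hcn2 was the most read of the 4 in both libraries, and no HCN gene passed the test between the libraries described further on.

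Among the pore-forming voltage-gated potassium channels, subunits that form no channel alone summed to nearly as many reads as the classical ones, 609 against 624. Kcnv1, a silent subunit that joins other Kv alpha subunits and changes their gating, had 110 reads in replicate 1 and 141 in replicate 2 (147 ± 7.52 CPM). Kcnf1, another silent subunit, had 75 reads in replicate 1 and 99 in replicate 2 (102 ± 7.32 CPM), and all 174 were Known reads of a transcript without introns. Kcng1 had 32 and 43 reads. Kcnc4, of the Shaw family, had 45 and 66 reads, and Kcna6, of the Shaker family, had 52 and 41. The silent subunits summed to 357 ± 21.4 CPM over 8 genes, and the Kcna to Kcnd genes to 371 ± 64.4 CPM over 15 genes, a difference within the SD of the second sum.

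Kcnh3, a voltage-gated channel of the Elk type found mainly in forebrain, was among the most read members, with 167 reads in replicate 1 and 229 in replicate 2 (232 ± 22.8 CPM). Kcnh1, the ether-a-go-go channel, had 24 and 34 reads, and Kcnh2 had 10 in each. Kcnq3, a subunit of the channels that carry the M-current, which restrains repetitive firing, had 16 reads in replicate 1 and 15 in replicate 2. Kcnq5, a further M-current subunit, had 14 and 7. The Kcnq genes had the largest share of genomic reads of any role group (57.3% of 150 reads).

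The most read auxiliary gene was Kcnip2, one of the KChIP genes, whose calcium-binding proteins attach to Kv4 channels. Kcnip2 had 114 reads in replicate 1 and 124 in replicate 2 (141 ± 9.14 CPM), and Kcnip3, whose protein has also been described as a transcriptional repressor, had 95 and 100 (115 ± 10.2 CPM). Kcnip1 had 47 and 60 reads and Kcnip4 had 35 and 46. The Kv4 alpha genes Kcnd1, Kcnd2 and Kcnd3 themselves had 12, 15 and 15 reads over both libraries. Kcnab2, a cytosolic subunit of Kv1 channels, had 82 reads in replicate 1 and 114 in replicate 2 (115 ± 12.4 CPM).

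Of the channels gated by calcium or sodium, Kcnmb4, the neuronal beta subunit of the large-conductance BK channel, had 68 reads in replicate 1 and 116 in replicate 2 (107 ± 26.7 CPM). Kcnma1, its pore subunit, had 21 and 26 reads, and 37 of the 47 were genomic. Kcnn2, a small-conductance channel of the afterhyperpolarization, had 72 reads in replicate 1 and 82 in replicate 2 (90.8 ± 2.95 CPM). Kcnt1, a sodium-activated channel, had 42 in each, and its spliced models with 25 or more exons held 13 reads in replicate 1 and 18 in replicate 2.

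The inward rectifiers were led by Kcnj9, a subunit of the G-protein-gated GIRK channels, with 70 reads in replicate 1 and 159 in replicate 2 (131 ± 57.8 CPM). Kcnj16 had 15 and 20 reads. Kcnj3, another GIRK subunit, had 14 and 18, and Kcnj10, the astrocytic inward rectifier, had 9 and 11. Among the tandem-pore leak channels, Kcnk1 had 134 reads in replicate 1 and 194 in replicate 2 (191 ± 26.2 CPM). Kcnk2, of the mechanosensitive TREK group, had 78 and 51 reads (77.9 ± 32.1 CPM), and Kcnk12 had 23 and 50.

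Reads of channel genes matched an annotated transcript less often than reads of protein-coding genes in general. Known reads made up 57.4% of channel reads in replicate 1 and 56.5% in replicate 2, a mean of 57.0% ± 0.624 (SD, n = 2), against 72.3% ± 0.827 over all protein-coding genes. ISM reads made up 17.5% of channel reads in replicate 1 and 18.5% in replicate 2 (SD 0.702), against 10.8% ± 0.341 over all protein-coding genes. Genomic reads made up 14.5% ± 0.112 and 5.52% ± 0.58. These differences exceeded the SD of the replicates in each class, which covers the spread between the libraries and not that between genes. They are descriptions without a test, since reads of 1 gene share their source. Unannotated combinations of annotated splice sites (NIC) held 5.18% ± 0.385 of channel reads and 6.97% ± 0.138 over all protein-coding genes, and chains with an unannotated splice site (NNC) held 5.32% ± 0.351 and 4.47% ± 0.0449. Among ISM reads of the channel genes, 65.7% lacked the 5′ part of the chain and kept the 3′ part (Suffix), against 71.9% over all protein-coding genes. Reads that kept the 5′ part (Prefix) made up 6.57% and 7.59%, and reads without a subtype 24.6% and 19.0%.

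**Figure D2:**
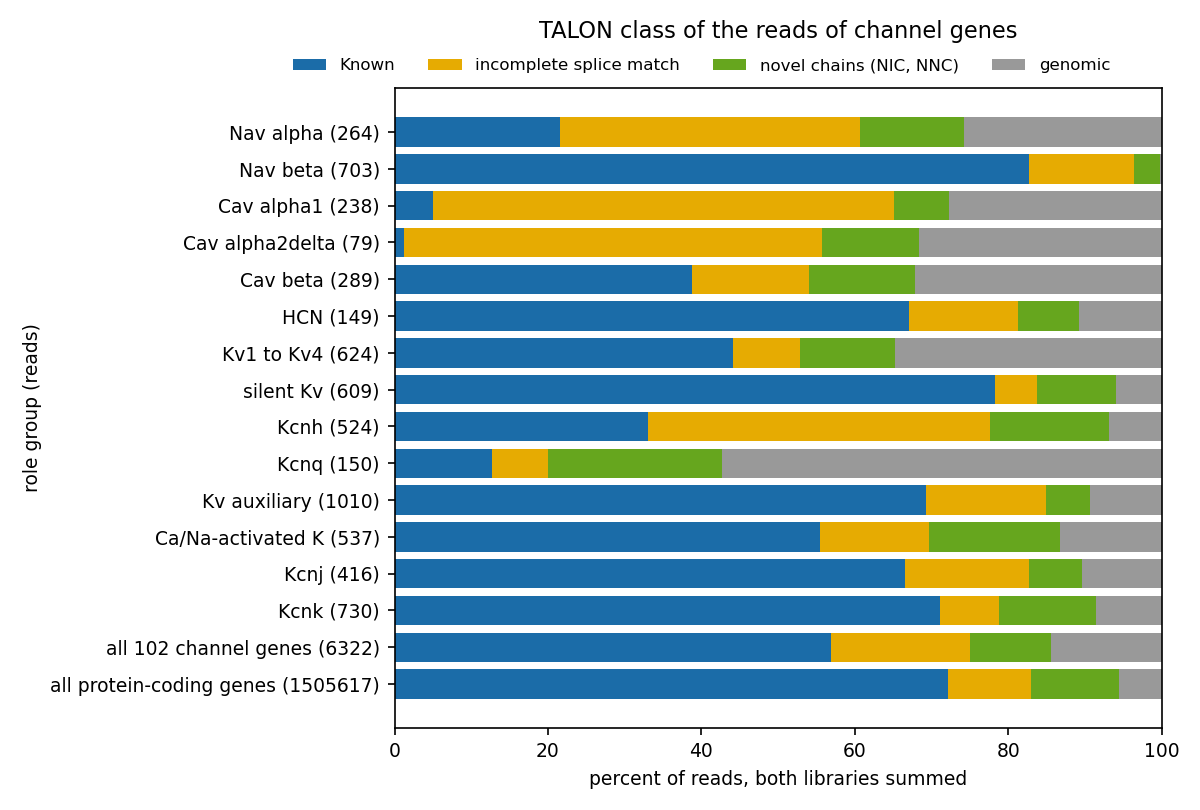
Percent of reads of both libraries in each deposited TALON class (horizontal axis), for each role group, all 102 channel genes and all protein-coding genes, with the number of reads in brackets. Known reads fill 82.6% of the sodium channel beta bar and 78.3% of the silent Kv bar, against 5.04% of the calcium channel alpha1 bar and 1.27% of the alpha2delta bar.

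The role groups differed more from each other than the channel genes as a whole did from other genes. Known reads made up 82.6% for sodium channel beta subunits, 78.3% for silent Kv subunits, 71.1% for Kcnk genes and 69.2% for Kv auxiliary subunits. They made up 44.1% for Kcna to Kcnd genes, 33.0% for Kcnh, 21.6% for sodium channel alpha, 12.7% for Kcnq, 5.04% for calcium channel alpha1 and 1.27% for alpha2delta subunits. Groups with long transcripts were not uniformly truncated into ISM: the Kcnq genes had 7.33% ISM and 57.3% genomic reads, whereas the calcium channel alpha1 genes had 60.1% ISM and 27.7% genomic reads.

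Single-exon reads made up nearly the whole genomic class. Of all genomic channel reads, 99.8% belonged to single-exon models. Single-exon models of the ISM and genomic classes together held 18.5% of channel reads in replicate 1 and 19.1% in replicate 2, against 6.95% in replicate 1 and 7.99% in replicate 2 over all protein-coding genes. Of the 1191 such channel reads, 996 (83.6%) lay within the last exon of an annotated coding transcript, with a tolerance of 50 bases, and over all protein-coding genes 76.5% did. All 20 reads of Kcnj10 and all 16 of Scn2b were of this kind. In Cacna1i it was 65.4% of reads in replicate 1 and 94.9% in replicate 2.

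Other truncated reads recurred at the same intron chain. In 16 channel genes, 23 ISM chains with more than 1 exon had at least 2 reads in each library and 5 in all, and together they held 390 of 865 such ISM reads. In Kcnip4, a chain of 8 exons held 27 reads in replicate 1 and 36 in replicate 2, which is 90% of the spliced ISM reads of the gene, while 4 of 81 reads were Known. In Kcnn2, a chain of 8 exons held 10 and 13 reads, and in Kcnk13 a chain of 2 exons held 9 and 7. Kcnh3 had 185 ISM reads among 396, spread over 7 such chains, of which the most read, with 5 exons, held 20 reads in replicate 1 and 34 in replicate 2. Whether such chains are transcripts with their own start or broken molecules was not tested.

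Known reads made up a smaller share in genes whose longest annotated coding transcript was long. Over the 63 channel genes with 20 or more reads, Spearman's rho between the length of the longest annotated coding transcript and the Known share was -0.55 (Pearson's r -0.56), and over 8791 other protein-coding genes it was -0.47 (r -0.45). With the length of the most read transcript in its place, rho was -0.16 over the 53 channel genes that have one (r -0.10) and -0.38 over 8510 others (r -0.33). For the ISM share, rho was 0.20 over the channel genes (r 0.22) and 0.37 over the others (r 0.34). The points share 2 libraries and their depth, so no p is given. For transcripts of up to 2 kb, 87.3% of the reads of 8 channel genes were Known, against 82.2% for other protein-coding genes. At 2 to 4 kb the shares were 63.1% and 74.6%, at 4 to 6 kb 57.3% and 60.5%, at 6 to 8 kb 7.51% and 47.0%, and above 8 kb 18.6% and 38.8%. In both bins above 6 kb, channel genes therefore had a smaller Known share of reads than other genes. Genomic reads there stood at 43.7% and 44.4% for channel genes against 15.8% and 22.2% for the others. The bin above 8 kb is open-ended, so lengths are not matched within it. Over genes with 20 or more reads, the median Known share at 6 to 8 kb was 2.5% for channel genes and 30.7% for others. Above 8 kb it was 8.57% and 16.1%. The bin of 6 to 8 kb holds 8 channel genes and 213 reads.

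**Figure D3:**
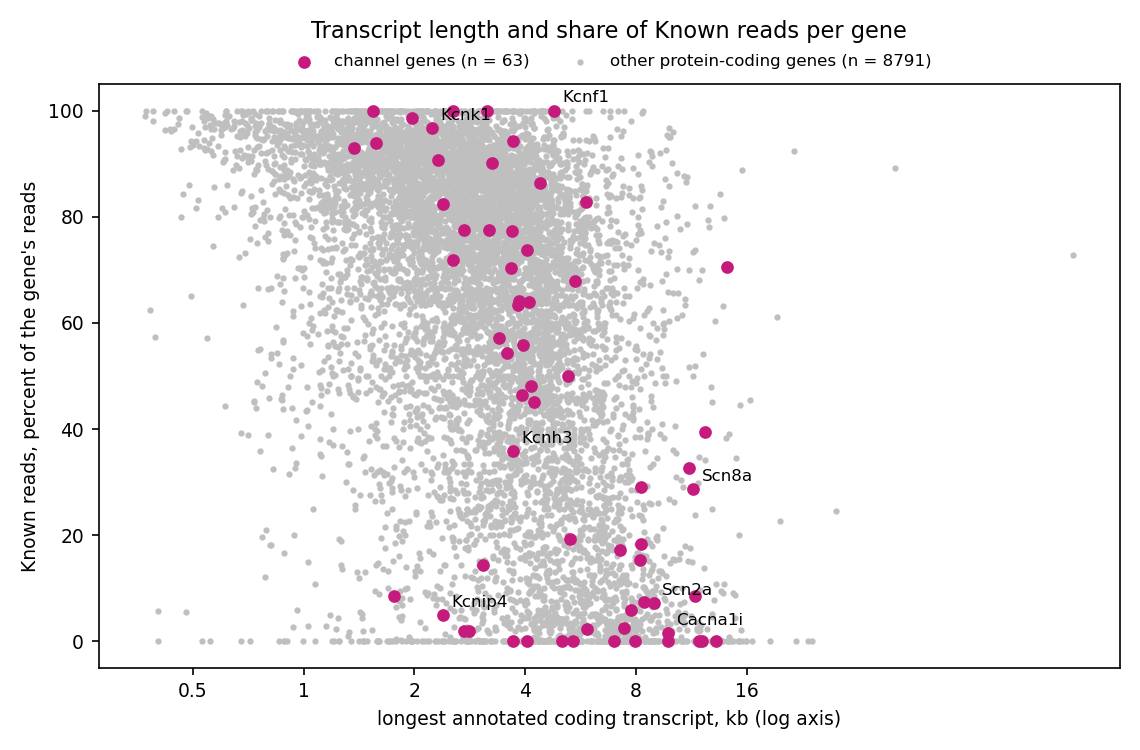
Length of the longest annotated coding transcript (kb, log axis) against the Known share of reads (percent) for 63 channel genes with 20 or more reads (large points) and 8791 other protein-coding genes (small points). Channel genes at the lower right, such as Cacna1i and Scn2a, have few Known reads, while Scn8a has 28.7% Known reads at 11436 bases.

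Gene by gene, the median ISM share was 16.2% over these 63 channel genes and 7.14% over the 8791 others, and the median Known share was 45% and 72.0%. The channel genes had longer transcripts, with a median of 4089 against 3107 bases. No Known read at all was seen in 10 of the 63 channel genes (15.9%), against 281 of the others (3.20%). They include Cacna1a, Cacna1b, Cacna1c, Kcnq3, Kcnq5, Kcnma1, Kcnc2 and Kcnn1. At the other end, 12 of the 63 had no ISM read (19.0%), against 12.7% of the others. Among them were Kcnf1, whose transcript has no introns, Kcna6 and Kcnk3. A gene without ISM reads can still have single-exon genomic reads, which made up 36.5% of the reads of Kcnk3 and 7.53% of those of Kcna6.

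Channel genes were read as few isoforms at this depth. Known, NIC and NNC isoforms with at least 2 reads were counted. The median was 2 over the 63 channel genes and 3 over the other protein-coding genes, at a median of 60 and 76 reads of any class per gene. The median Known share was 45% and 72.0%, so the reads that can count as isoforms differ more. The part of depth in the number of isoforms was not tested. Kcnip3-203 made up 72.8% in replicate 1 and 71.6% in replicate 2, and Kcnip3-201 22.2% and 14.8%. Cacnb1 was divided between Cacnb1-201 (48.8% in replicate 1 and 55.6% in replicate 2) and Cacnb1-205 (36.6% and 28.9%). Kcnk1 and Kcnab2 were each read almost wholly as 1 isoform, at 97.2% ± 2.50 and 91% ± 1.67 (SD, n = 2).

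A few genes departed from the annotation. In Kcnc4, an unannotated chain of 4 exons held 8 of 43 isoform reads in replicate 1 (18.6%) and 14 of 59 in replicate 2 (23.7%), beside Kcnc4-201 at 76.7% and 76.3%. Kcna6 was read mainly as Kcna6-201, with 44 reads in replicate 1 and 32 in replicate 2, a transcript that the annotation lists under nonsense-mediated decay. Such transcripts made up 2.22% of Known reads of the channel genes, 80 reads of which Kcna6-201 has 76, and 0.483% over all protein-coding genes. The members with most isoforms were Kcnk4 with 12, Kcnh3 and Kcnk2 with 9 each, and Kcnip2 and Kcng2 with 6 each. In Kcnk4, 42 of 71 reads were NIC, and the gene overlaps Catsperz on the same strand, so the assignment of its reads is uncertain. Scn2a was read in full mainly through an unannotated combination of 27 exons, with 3 reads in replicate 1 and 7 in replicate 2.

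Most internal exons of the channel genes were held by nearly all of their spanning reads. In 34 genes, 270 exons had at least 10 spanning reads in each library, and 232 of them were held by over 90% of spanning reads, 185 by every one. A further 26 were held by under 10%. A read with another splice site of the same exon counted neither for nor against it, so this measure does not see alternative splice sites. In Kcnip3, for example, 2 forms of an exon, of 121 and 125 bases, were each held by every spanning read (31 and 130 reads). Only 12 exons in 9 genes were held by 10% to 90% of spanning reads. Of these, 11 are annotated and 6 have a length that is a multiple of 3. Kcnip1 showed the clearest cassette exon: an exon of 33 bases was held by 14 of 47 spanning reads in replicate 1 (29.8%) and 24 of 55 in replicate 2 (43.6%), which separates Kcnip1-203 from Kcnip1-201. In Kcnip2 an exon of 54 bases was held by 95 of 106 spanning reads in each library (89.6%). Reads that joined its commonest neighbouring exons directly numbered 6 in replicate 1 and 5 in replicate 2. Set against these alone, its inclusion was 94.1% in replicate 1 and 95% in replicate 2, outside the range of 10% to 90%. In Kcnn1, an exon of 111 bases was held by 16 of 21 reads in replicate 1 and 14 of 18 in replicate 2.

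The tandem-pore genes Kcnk2 and Kcnk4 each had an alternative exon at exon 3, of 118 and 127 bases, neither a multiple of 3. The Kcnk2 exon was held by 50 of 62 spanning reads in replicate 1 (80.6%) and 25 of 33 in replicate 2 (75.8%), and the Kcnk4 exon by 18 of 21 (85.7%) and 19 of 26 (73.1%). The exons of these 5 genes are printed below from the GENCODE M21 transcripts (mm10), 5′ to 3′ along the gene, with the exon in capitals and 10 bases of each flanking exon in lower case.
Kcnip1, chr11:33651540-33651572, minus strand: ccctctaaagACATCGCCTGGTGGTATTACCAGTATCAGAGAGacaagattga
Kcnip2, chr19:45796279-45796332, minus strand: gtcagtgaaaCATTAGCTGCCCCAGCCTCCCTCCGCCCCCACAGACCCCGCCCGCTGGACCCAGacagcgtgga
Kcnn1, chr8:70848778-70848888, minus strand: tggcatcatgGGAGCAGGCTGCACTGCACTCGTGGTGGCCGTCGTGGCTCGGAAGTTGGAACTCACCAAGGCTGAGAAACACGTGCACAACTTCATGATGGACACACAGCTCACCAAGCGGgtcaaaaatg
Kcnk2, chr1:189295594-189295711, minus strand: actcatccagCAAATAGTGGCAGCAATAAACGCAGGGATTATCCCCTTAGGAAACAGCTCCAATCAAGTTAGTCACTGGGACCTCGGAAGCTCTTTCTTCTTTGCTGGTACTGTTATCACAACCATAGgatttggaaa
Kcnk4, chr19:6928282-6928408, minus strand: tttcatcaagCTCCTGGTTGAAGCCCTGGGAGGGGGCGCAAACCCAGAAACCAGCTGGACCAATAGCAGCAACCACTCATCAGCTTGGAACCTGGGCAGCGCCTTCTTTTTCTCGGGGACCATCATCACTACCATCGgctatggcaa

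**Figure D4:**
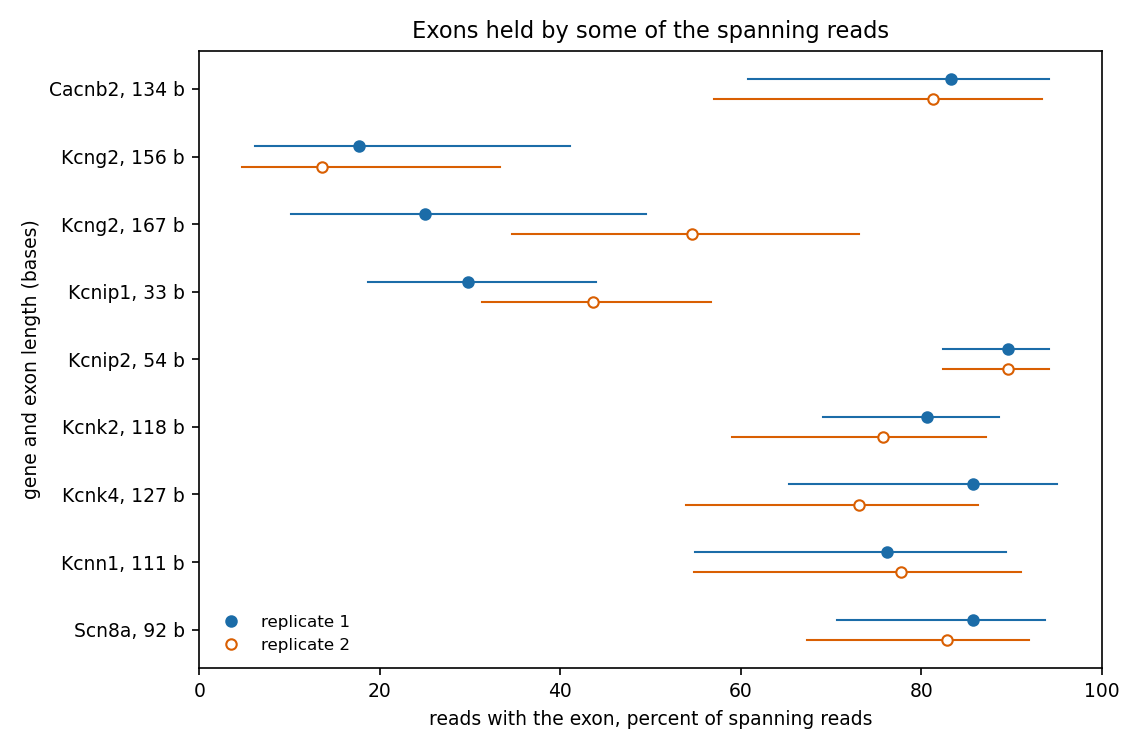
Percent of spanning reads that hold each of 9 exons held by 10% to 90% of them, with filled circles for replicate 1, open circles for replicate 2 and lines for 95% Wilson intervals. The intervals of the libraries overlap for every exon, and the Scn8a exon sits at 85.7% in replicate 1 and 82.9% in replicate 2.

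No difference in exon inclusion between the libraries passed Fisher's exact test in the channel genes: 0 of 85 exons tested passed at an adjusted p under 0.05 (Benjamini-Hochberg over all exons), and 0 had an unadjusted p under 0.05. Over all 17365 exons tested, 1 passed, or 0.00576%, and 175 had an unadjusted p under 0.05. For isoform usage, 0 of 9 channel genes passed the chi-square test, against 16 of 2532 genes in all (0.632%). An unadjusted p under 0.05 was seen in 2 of the 9, Kcnh3 and Kcnk1, and in 152 of the 2532.

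Read counts of the channel genes were close in both libraries. Of 84 channel genes tested, 2 passed Fisher's exact test at an adjusted p under 0.05, against 236 of 11203 genes (2.11%), so the channel genes differed about as often as genes in general. An unadjusted p under 0.05 was seen in 8 of the 84 channel genes, these 2 included, and in 1254 of the 11203 genes. The median log2 ratio of replicate 1 over replicate 2 was 0.02 over the channel genes and 0.01 over all genes tested. Within 2-fold lay 74 of the 84 channel genes, a somewhat smaller share than the 10409 of all 11203 genes.

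Kcnj9 had 70 reads in replicate 1 and 159 in replicate 2, a log2 ratio of -0.92 (95% interval -1.33 to -0.52, adjusted p = 0.000667 by Fisher's exact test), and was the only channel gene called higher in replicate 2, where 1.1% of all genes were. The difference lay in its main isoform too, since Kcnj9-201 had 43 reads in replicate 1 and 90 in replicate 2. Kcnk2 had 78 reads in replicate 1 and 51 in replicate 2, a log2 ratio of 0.86 (0.36 to 1.37, adjusted p = 0.0399 by Fisher's exact test), and was the only channel gene called higher in replicate 1, where 1.01% of all genes were. Of its isoforms, Kcnk2-206 had 28 reads in replicate 1 and 6 in replicate 2, while Kcnk2-201 had 13 and 12. The striatal markers were also higher in replicate 1 (1233 CPM) than in replicate 2 (394 CPM), and their part in these differences was not tested. Without a minimum of reads the adjusted p of Kcnk2 was 0.0654, and the call was lost.

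**Figure D5:**
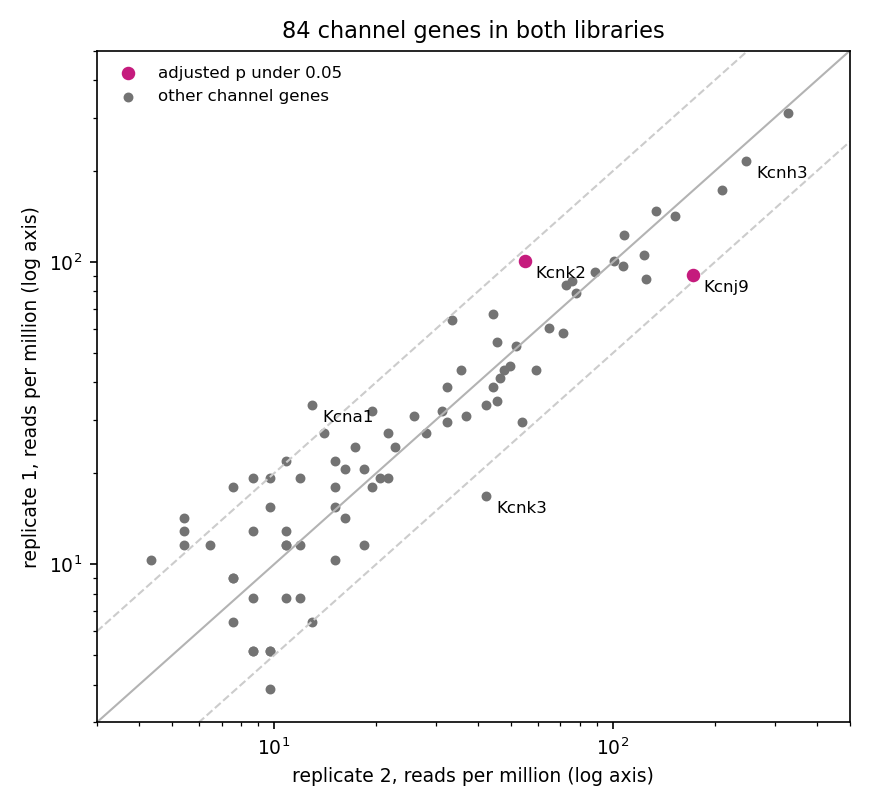
CPM in replicate 2 (horizontal) and replicate 1 (vertical), both on log axes, for the 84 channel genes with 10 or more reads over both libraries, with lines at equality and at a 2-fold difference. Kcnj9 lies below and Kcnk2 above the line of equality, and 74 of the 84 genes lie within the 2-fold lines when ratios are computed with 0.5 reads added.

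The ISM share differed between the libraries in 1 of 51 channel genes tested, Kcnh1, against 197 of 7806 genes (2.52%). Kcnh1 had 0 ISM reads of 24 in replicate 1 and 27 of 34 in replicate 2 (adjusted p = 3.86e-08 by Fisher's exact test). The same kind of read carried different class labels: single-exon reads were genomic in replicate 1 (17 reads) and mostly ISM in replicate 2 (23 ISM and 1 genomic). Summed, these classes held 70.8% of Kcnh1 reads in replicate 1 and 70.6% in replicate 2, and no channel gene passed the test when genomic reads were counted as truncated. Each library had its models built separately, and an identical single-exon model of Kcnk2, 532 bases long, was likewise ISM in replicate 1 (12 reads) and genomic in replicate 2 (15 reads). It was the only 1 of 13 single-exon channel models with the same ends in both libraries whose class differed. With any ends, single-exon reads of Kcnj9 were 0 ISM and 11 genomic in replicate 1, and 24 ISM and 1 genomic in replicate 2. Those of Scn8a were 10 ISM and 18 genomic in replicate 1, and 0 ISM and 39 genomic in replicate 2. In Cacna1i and Scn2a all were ISM in both libraries.

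Genes whose proteins bind or regulate these channels were taken from a list of 30, of which 28 had a read in both libraries and 23 were tested. Lgi1, a secreted protein that acts on Kv1 channels and synapses, was higher in replicate 1 with 80 reads against 51 in replicate 2 (log2 ratio 0.90, adjusted p = 0.0271 by Fisher's exact test). The calmodulin genes Calm2 and Calm3, which encode the calcium sensor bound to Kcnn and Kcnq channels, were called lower in replicate 1, with log2 ratios of -0.15 and -0.27. The Kv4 partner Dpp10 had 57 reads in replicate 1 and 73 in replicate 2, and Dpp6 had 50 and 44. Fgf13, a cytosolic partner of sodium channels, had 69 and 119 reads, and its log2 ratio of -0.53 did not pass (adjusted p = 0.252 by Fisher's exact test). The BK partner genes Lrrc52 and Lrrc26 had no read in either library.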

How the data were processed

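The authors deposited 1 table per library, with a whole-number read count for each transcript model, and the exons of the models. Per the text deposited with them, models were built on mm10 with GENCODE M21. TALON is named in the models. The aligner is not given in the sources used here, nor are versions. All 223 Known channel models carried the annotated exons and ends, so their ends are not those of the reads. Reads were summed per gene, and CPM used all mouse reads, without spike-ins. Tests ran over all genes with Python 3.11.15 and scipy 1.17.1: Fisher's exact test for gene reads (at least 10 reads), exon inclusion (10 spanning reads in each library) and ISM share (20 reads), and a chi-square test for isoforms (50 reads in each library, those under 10 merged), adjusted by Benjamini-Hochberg at 0.05. An exon counted as held when both junctions were read. The tests were tried on simulated data. Alternative scalings came from edgeR 4.0.16 and DESeq2 1.42.0. Named genes were the 3 highest of each role group, the members past a test, the 5 with the highest and the 5 with the lowest ISM share among those with 50 reads, the 15 most covered alternative exons, and the 5 with most isoforms. Other members named stand in the text by their values. The members and lists were chosen with earlier results of these data known. Intervals cover counting error only. A few genes and sequences are not reported here.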

Additional observations from a re-analysis of the deposited data

How the results depend on the processing

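No paired analysis was possible because the series has 1 group. The count of channel genes that differed between the libraries was 2 under all scalings and minima tried except without a minimum of reads (1), and 3 with spliced classes alone, where Kcnh1 joined at a log2 ratio of -1.93 through its class labels. The count for the ISM share was 1, and 0 with genomic models counted as truncated, with single-exon models left out, or with single-exon reads of both classes together, a setting chosen after seeing the data. The share of reads on channel genes was 0.325% by Known reads alone and 0.419% of protein-coding reads, and ran from 0.368% to 0.375% over the single libraries. The ISM share was 32.5% with genomic reads and 16.2% as a median over genes, and 17.5% to 18.5% over the libraries. The median number of isoforms was 1 at a 10% share in both libraries or by Known models, 3.5 with at least 100 reads, and 1 to 2 over the single libraries. The relation of length to ISM share reversed with the length of the most read transcript (rho -0.0637). The cause was not tested. Counts for isoform usage and exons were 0 under every alternative run. At this depth, genes with few reads allow no statement on isoforms.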

Other observations

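Kcna6 was listed with a genomic model of only 4 bases at the 3′ end of the gene in both libraries, with 2 reads in replicate 1 and 5 in replicate 2. Kcnk7 was listed with a single-exon genomic model of 3111 bases in both libraries, with 1 and 3 reads, which runs past the annotated end of the gene. Pdcd5-ps, a processed pseudogene on the strand of Kcnk2 and within it, had 9 reads in replicate 1 and 13 in replicate 2. An unannotated exon of Kcng2, of 167 bases, was held by 4 of 16 spanning reads in replicate 1 and 12 of 22 in replicate 2, and this difference did not pass Fisher's exact test (adjusted p = 1).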
